A study of Mus musculus with 81 samples.

Results

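DGCs of 6 male Ts65Dn (Ts) mice were compared with DGCs of 6 male disomic (2N) mice, all at 6 MO and all born to dams kept on a diet with 1.1 g/kg choline chloride. These 12 libraries were taken from the 81 of the series by their labels, which gave the dentate population, normal maternal choline, and the Ts65Dn or 2N genotype. The study isolated CA1 PNs, CA3 PNs and DGCs by laser capture microdissection (LCM) from the same brains and sequenced the RNA of each population. Another 9 Ts and 7 2N mice with DGC libraries came from dams given 5.0 g/kg choline chloride. They are used here for comparison with the normal diet and in an alternative fit of both diets. Pups had the diet of their dam until weaning, and every mouse had the control diet from then on.

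Ts mice were bred from trisomic females and males of a C57Bl/6J Eicher by C3H/HeSnJ cross, so both genotypes share that mixed background. Their extra mini-chromosome carries the distal end of Mmu16, which holds many genes whose human counterparts lie on chromosome 21, and the centromeric end of Mmu17, whose genes have no counterpart there. DGCs are the excitatory neurons that receive cortical input to the hippocampus and relay it through mossy fibers to CA3 PNs, and they are among the few neurons that continue to be born in the adult brain. A gene whose output follows copy number yields 1.5 times the RNA when the segment is triplicated, which is 0.585 on the log2 scale. LFC here is the log2 fold change of Ts over 2N. CPM is the count of a gene scaled to the total of its library times the library's TMM normalization factor, without correction for gene length. That factor was 0.98 to 1.02 in these libraries. Unadjusted and adjusted p are those of edgeR's quasi-likelihood test across all genes.

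The library measures of the genotypes overlapped. Total expected counts ran from 807076 to 1671295 in Ts and from 696340 to 1469540 in 2N libraries, and a two-sided exact permutation test over the 924 arrangements of the 12 libraries gave p = 0.437. Mitochondrial genes held 5.65 to 7.74% of counts in Ts and 6.07 to 8.23% in 2N (exact p = 0.567), and protein-coding genes held 82.6 to 84.7% and 83.5 to 86.2% (exact p = 0.0520). The dentate marker list (Prox1, Dsp, C1ql2, Calb1, Stxbp6, Tdo2, Glis3, Pdzd2, Trpc6 and Lct) summed to 3026 to 3381 CPM in Ts and 3054 to 3515 CPM in 2N. Of these 10 markers C1ql2 (LFC 0.58) and Calb1 (0.20) were higher and Lct (-0.24) lower at an unadjusted p under 0.05, which is 30.0% of the list beside 8.5% of all genes, with 0 adjusted calls. Prox1, the transcription factor that marks granule cells, stood at 745 to 871 CPM in Ts and 789 to 950 CPM in 2N. The 4 mossy cell markers summed to 14.2 to 40.9 CPM in Ts and 28.6 to 39.3 CPM in 2N, with Drd2 at 0 in all 12 libraries. The neurons were picked by position and Nissl stain, so RNA of neighbouring cells can be present, and a bulk library cannot tell fewer cells of a type from less RNA per cell.

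The triplicated Mmu16 genes were higher in Ts DGCs along nearly the whole segment. Of the 65 genes that the study lists as expressed in these cells, 63 had a positive LFC, and the quartiles of the 65 values were 0.40 and 0.68. The study drew up that list on the same libraries, so its direction is not independent evidence. At an adjusted p under 0.05 in edgeR, 33 of the 90 triplicated genes of both segments were higher and 0 were lower, beside 0.588% called of all 13442 genes tested. At an unadjusted p under 0.05, the threshold of the study, 65 of the 90 were higher, beside 4.55% of all genes called higher and 8.5% called in either direction. The CPM of the Ts libraries lay wholly above those of the 2N libraries for 27 of the 90, beside 0.692% of all genes whose groups did not overlap.

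App, the amyloid precursor protein gene at chr16:84746573-84971126 (GRCm39, minus strand), had a lowest, median and highest value of 1189, 1210 and 1326 CPM in Ts and 645, 765 and 816 CPM in 2N. All Ts libraries were above all 2N libraries, and the LFC was 0.73 (SE 0.06, adjusted p = 6e-14). Son (chr16:91443949-91476605, plus strand), a nuclear speckle protein needed for splicing, ran from 1178 through 1303 to 1378 CPM in Ts and from 707 through 740 to 818 CPM in 2N. Its groups did not overlap either, with an LFC of 0.78 (SE 0.06, adjusted p = 2.18e-15), the smallest p of any gene tested. Ttc3, an E3 ubiquitin ligase gene, ranged from 1393 to 1782 CPM in Ts against 961 to 1105 CPM in 2N, an LFC of 0.59 (SE 0.06, adjusted p = 2.78e-11).

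**Figure D1:**
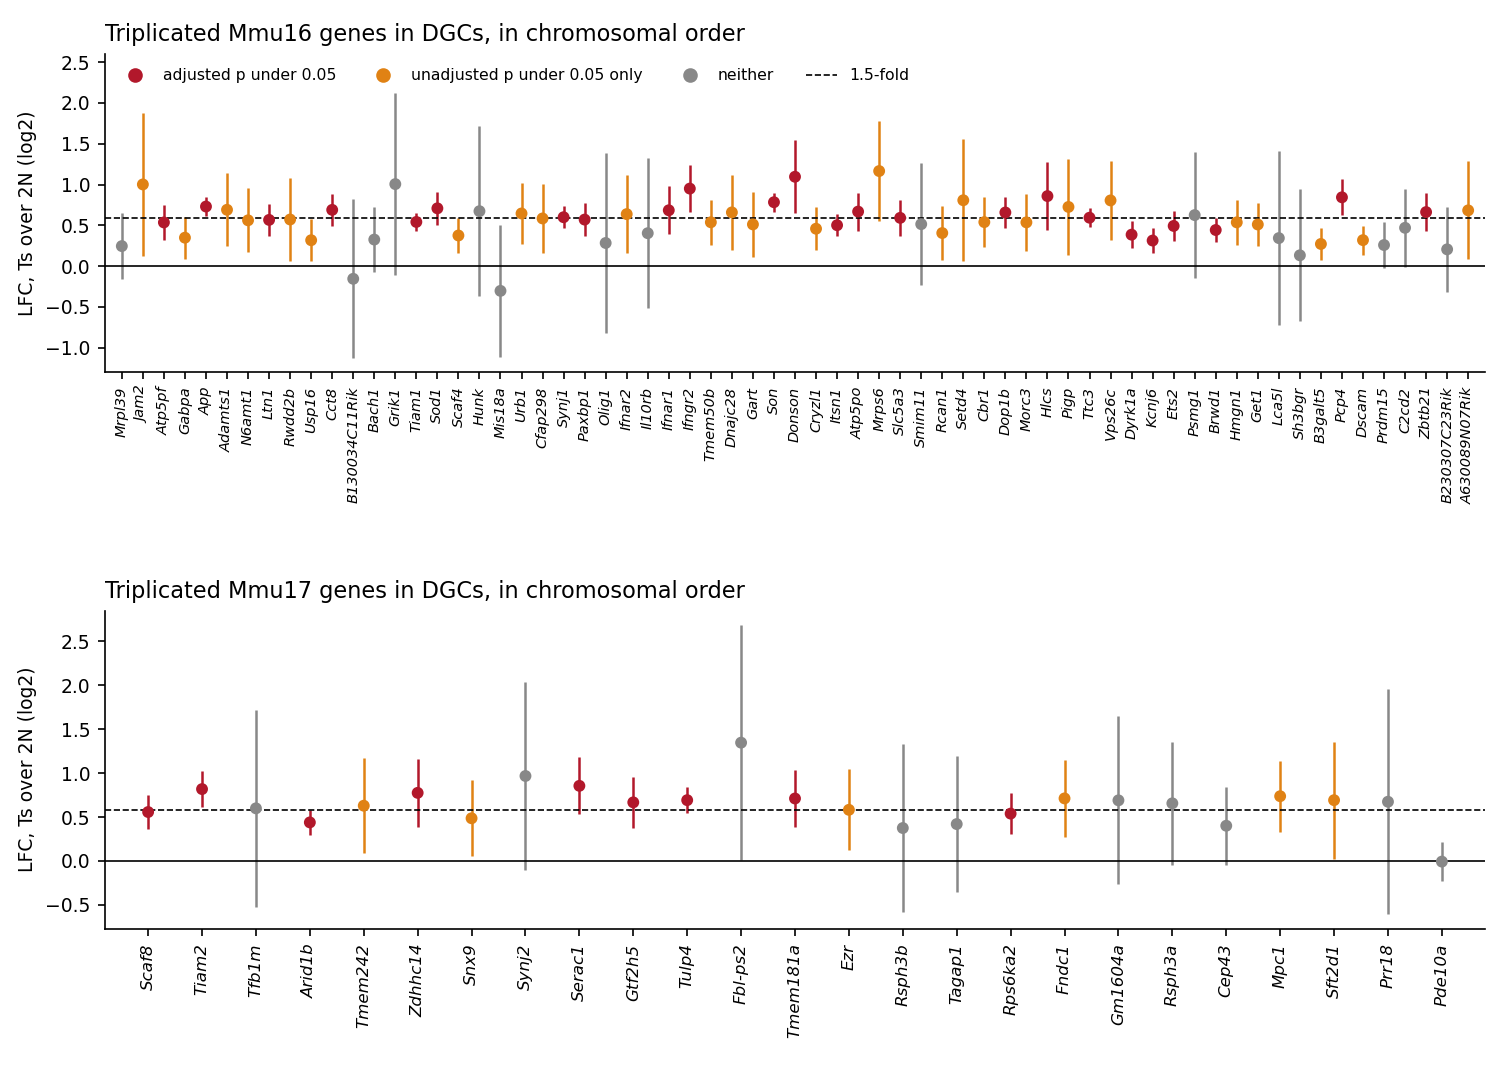
LFC of Ts over 2N in DGCs (vertical axis, log2 scale) for each tested triplicated gene of Mmu16 (65 genes, top) and Mmu17 (25 genes, bottom) in chromosomal order, with 95% intervals as bars, red for an adjusted p under 0.05, orange for an unadjusted p under 0.05 only, grey for neither, and the dashed line at 1.5-fold. Most points sit near the dashed line along both segments, and Pde10a, the last gene drawn on Mmu17, sits at an LFC of -0.01.

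Some triplicated genes act in membrane traffic or on the actin cytoskeleton. Synj1, which encodes the synaptic vesicle phosphatase synaptojanin 1, had 497, 593 and 655 CPM (lowest, median, highest) in Ts and 342, 394 and 401 CPM in 2N. Its LFC of 0.60 (SE 0.07) had an adjusted p of 8.39e-09 in edgeR, and the genotypes did not overlap. Tiam1, an activator of the small GTPase Rac, had 953, 1006 and 1109 CPM in Ts and 676, 693 and 722 CPM in 2N, also with no overlap, and an LFC of 0.54 (SE 0.06, adjusted p = 1.21e-09). The endocytic scaffold gene Itsn1 had an LFC of 0.50 (SE 0.07, adjusted p = 1.35e-06), and Dop1b, a gene of endosomal traffic, had 0.66 (SE 0.10, adjusted p = 1.34e-05). Among less abundant traffic genes of both segments, 3 that were not called had an LFC of 0.81 (SE 0.24, adjusted p = 0.157) for Vps26c, 0.49 (SE 0.22, adjusted p = 0.536) for the sorting nexin gene Snx9 and 0.97 (SE 0.54, adjusted p = 0.667) for Synj2, all 3 picked after their values were seen.

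Signalling genes of the Mmu16 segment had LFCs both below and above 1.5-fold. Dyrk1a (chr16:94369804-94496380), a kinase that opposes calcineurin and NFAT signalling, had 213, 230 and 252 CPM in Ts and 147, 174 and 215 CPM in 2N. The groups overlapped in 1 Ts library, and the LFC of 0.39 (SE 0.08, adjusted p = 0.0101) has a 95% interval from 0.22 to 0.55, below the 1.5-fold line. Kcnj6 (chr16:94545901-94798612), the GIRK2 subunit of the potassium channel that GABA-B receptors open, ran from 244 to 327 CPM in Ts and from 226 to 270 CPM in 2N. Its LFC was 0.31 (SE 0.08, adjusted p = 0.0409), and its interval also ended below 1.5-fold, at 0.47. Pcp4 (chr16:96268806-96326997), a small modulator of calmodulin, lay above that line, with 169, 228 and 249 CPM in Ts and 83.0, 134 and 147 CPM in 2N and an interval from 0.62 to 1.06 around an LFC of 0.84 (SE 0.11). Rcan1, the calcineurin inhibitor, had an LFC of 0.41 (SE 0.17) at an unadjusted p of 0.0185 and an adjusted p of 0.47, and its CPM overlapped.

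Of the 4 interferon receptor list genes on the segment, 2 passed the adjusted threshold. Ifngr2 (chr16:91343906-91362512), a chain of the interferon gamma receptor, had 48.1, 57.3 and 62.0 CPM in Ts and 26.5, 28.2 and 35.6 CPM in 2N. With no overlap, its LFC was 0.95 (SE 0.15, adjusted p = 2.98e-05). Ifnar1, a chain of the interferon alpha and beta receptor, had an LFC of 0.68 (SE 0.15, adjusted p = 0.00926), and Ifnar2 had 0.64 (SE 0.24) at an unadjusted p of 0.0113 and an adjusted p of 0.399. Il10rb, the remaining triplicated member, had an LFC of 0.40 (SE 0.47, adjusted p = 0.905). Ifngr1, whose gene is not triplicated, had an LFC of 0.09 (adjusted p = 0.983). Of 16 genes that interferons are known to induce, 5 were expressed enough to test, all 5 had a positive LFC (median 0.38), and 2 of them, among which was Irf9 (0.71, adjusted p = 0.568), passed the unadjusted threshold (40.0% beside 8.5% of all genes) and 0 the adjusted one.

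Housekeeping genes of the segment were among the higher genes. Sod1 (chr16:90017408-90027657), the cytosolic superoxide dismutase, had 117, 135 and 150 CPM in Ts and 72.2, 82.2 and 91.5 CPM in 2N, an LFC of 0.71 (SE 0.10, adjusted p = 4.15e-06) without overlap. Of 20 antioxidant genes tested it alone passed the unadjusted threshold, 5.0% of the list beside 8.5% of all genes. Cct8, a subunit of the CCT chaperonin that folds actin and tubulin, had an LFC of 0.69 (SE 0.10, adjusted p = 7.07e-06), while 0 of the 7 subunits encoded elsewhere passed either threshold and the median of all 8 was -0.02. The ATP synthase subunit genes Atp5po (0.67, SE 0.12) and Atp5pf (0.54, SE 0.11) were the only 2 of 78 nuclear genes of oxidative phosphorylation with an adjusted p under 0.05. That list had 8 genes higher and 1 lower at the unadjusted threshold, 11.5% of it beside 8.5% of all genes, with a median LFC of 0.06 beside 0.003 for all genes tested.

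The other Mmu16 genes with an adjusted p under 0.05 served unrelated functions. They were Donson (LFC 1.09), a replication fork factor, Hlcs (0.86), the ligase that attaches biotin to carboxylases, Zbtb21 (0.66), a zinc finger gene, Slc5a3 (0.59), the myo-inositol transporter, Paxbp1 (0.57), Ltn1 (0.57), the ubiquitin ligase of stalled ribosomes, Ets2 (0.49), a transcription factor, and Brwd1 (0.44). B130034C11Rik (LFC -0.16, adjusted p = 0.9805) and Mis18a (-0.30, adjusted p = 0.925) were the 2 genes with a negative LFC, and both were at a median of 5.18 CPM or less in either genotype. The 95% interval held 1.5-fold for 53 of the 65 genes, lay above it for 5 (App, Ifngr2, Son, Donson and Pcp4) and below it for 7 (Usp16, Mis18a, Dyrk1a, Kcnj6, B3galt5, Dscam and Prdm15). The intervals were not corrected for the number of genes, so some of the 65 can miss 1.5-fold by chance.

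Whether a triplicated gene was called went with its level. Of the 33 Mmu16 genes at or above the median 2N level of 31.3 CPM, 21 had an adjusted p under 0.05, against 3 of the 32 below it. The median LFC was 0.54 at or above that level and 0.60 below it, and the median SE was 0.10 and 0.26. The 10 tested genes nearest to the segment on its proximal side had a median LFC of -0.09 (from -0.54 to 0.42) with 0 called at the unadjusted threshold, and the 347 tested genes on the rest of Mmu16 had a median of 0.01 with 0 adjusted calls. The listed genes spanned chr16:84502276-97883698.

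The Mmu17 segment (listed genes at chr17:3165186-9205482) had a median LFC of 0.67. Of its 25 tested genes 24 had a positive LFC, 15 passed the unadjusted and 9 the adjusted threshold, and the quartiles were 0.54 and 0.71. The 9 adjusted calls were 5 without 2N replicate 4 and 5 to 9 over the 12 fits that left out 1 library. Tiam2 (chr17:3376808-3581619), a Rac activator like Tiam1, had 110, 153 and 176 CPM in Ts and 73.5, 85.0 and 94.0 CPM in 2N. Its LFC of 0.82 (SE 0.11, adjusted p = 2.47e-07) had an interval from 0.61 to 1.03, above 1.5-fold, and no Ts library overlapped a 2N library. Tulp4 had 391, 429 and 480 CPM in Ts and 234, 272 and 292 CPM in 2N, an LFC of 0.69 (SE 0.07, adjusted p = 7.08e-10). Arid1b, a subunit of the BAF chromatin remodelling complex, had an LFC of 0.44 (SE 0.07, adjusted p = 1.11e-04) with an interval below 1.5-fold.

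Further adjusted calls on Mmu17 were Serac1 (LFC 0.85), a gene of phospholipid remodelling, Zdhhc14 (0.78), a palmitoyltransferase gene, Tmem181a (0.71), Gtf2h5 (0.67), a subunit of the repair factor TFIIH, Scaf8 (0.56), which binds RNA polymerase II, and Rps6ka2 (0.54), a ribosomal S6 kinase gene. Pde10a (chr17:8744204-9205482), a cyclic nucleotide phosphodiesterase and the listed gene farthest from the centromere, was the exception. Its CPM were 135, 147 and 168 in Ts and 93.9, 149 and 191 in 2N, an LFC of -0.01 (SE 0.12, adjusted p = 0.995) whose interval ended at 0.22. In mice of the supplemented diet Pde10a had an LFC of 0.37 (adjusted p = 0.0194), and the test of the difference between diets gave an unadjusted p of 0.00663 that did not hold after adjustment over all genes. The 10 tested genes nearest to the segment on its distal side had a median LFC of -0.03 (from -0.27 to 0.675), and 1 passed the unadjusted threshold. The 569 genes tested on the rest of Mmu17 had a median LFC of -0.01 with 1 adjusted call, Rgs11.

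Each Ts library carried the extra dose. The level of a segment in a library was taken as the median over its genes of the log2 CPM relative to the 2N mean, with 0.5 CPM added. On Mmu16 the Ts libraries lay between 0.52 and 0.64 and the 2N libraries between -0.07 and 0.15, and on Mmu17 between 0.56 and 0.76 and between -0.09 and 0.24. The highest 2N library on Mmu16 was replicate 1, of mouse 15-145, whose CA3 PN library is labelled Ts although its other libraries are labelled 2N. That CA3 PN library had an Mmu16 level of 0.02, here from CPM on library totals. The level was 0.56 to 0.63 in the other 6 Ts and -0.03 to 0.03 in the 5 2N libraries of CA3 PNs. The CA3 PN library of mouse 15-145 was left out of the comparisons between populations. Without 2N replicate 1, 28 Mmu16 genes passed the adjusted threshold, with a median LFC of 0.58.

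**Figure D2:**
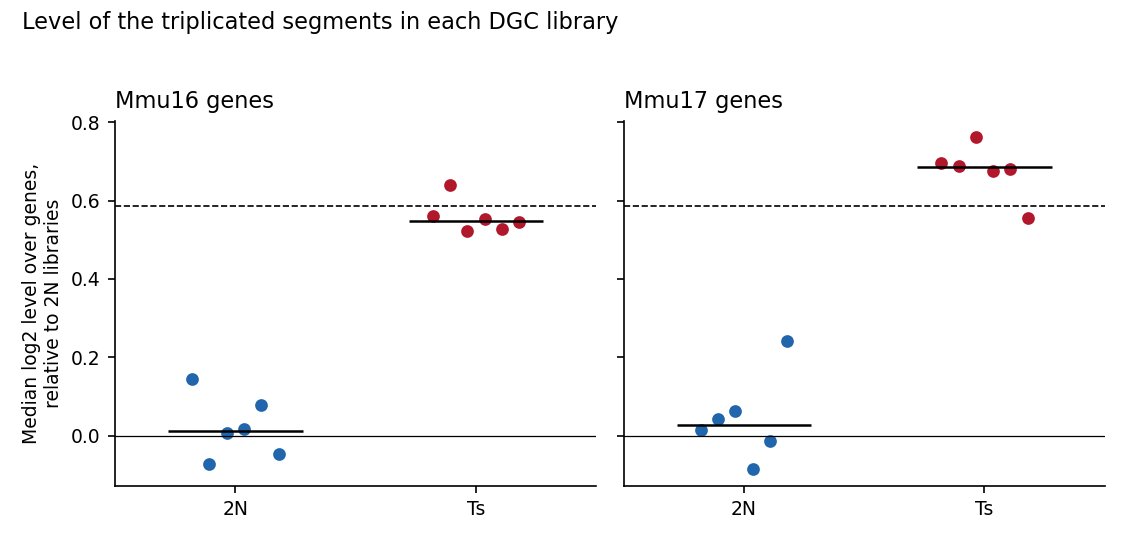
Median log2 level of the triplicated Mmu16 genes (left) and Mmu17 genes (right) in each DGC library relative to the 2N libraries, with a point per mouse, the horizontal bar at the group median and the dashed line at 1.5-fold. The 6 Ts libraries (0.52 to 0.64 on Mmu16) and the 6 2N libraries (-0.07 to 0.15) are apart on both segments.

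Among the 33 triplicated genes with an adjusted p under 0.05, 26 kept it when each of the 12 libraries was left out in turn. Dyrk1a (adjusted p from 0.00263 to 0.0597 over those fits) and Rps6ka2 (0.00282 to 0.0652) lost it without 2N replicate 4. Gtf2h5 (0.00163 to 0.0628) lost it in 3 of the 12 fits, Tmem181a (0.0146 to 0.0762) in 4, Hlcs (0.0181 to 0.155) in 7, and Kcnj6 (0.00926 to 0.120) and Zdhhc14 (0.00658 to 0.161) in 9.

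Outside the segments, 46 of 13352 genes had an adjusted p under 0.05, 26 higher and 20 lower in Ts, with absolute LFCs from 0.29 to 2.30 (median 0.54). Genes outside are those that the study does not list as triplicated. The 13352 thus include 2 unlisted genes within the ends of the Mmu16 segment and 3 within those of Mmu17. Of these, 1 and 2 were higher at the unadjusted threshold, and the 46 hold none of them. Over all genes, segments included, the 79 adjusted calls (59 higher, 20 lower) were 45 (32 and 13) in limma-voom and 49 to 81 when 1 library was left out, with 38 to 61 higher and 11 to 26 lower. They were fewest, 49 (38 and 11), without 2N replicate 2, and the lower calls were also 11 without Ts replicate 3 and 13 without Ts replicate 6, and the higher ones 39 without 2N replicate 6. The lower genes included the kainate receptor gene Grik3, the calcium channel genes Cacna1g and Orai2, the transcription factor genes Sox4 and Rfx5 and the adhesion gene Pcdhga2. The higher genes included the vesicle fusion gene Cplx1, the phosphatase gene Ptpn5 and the G protein regulator gene Rgs11. The CPM of the genotypes did not overlap for 20 of the 46, beside 66 of all 13352 genes outside the segments and 0.692% of all genes tested, and the 46 were chosen for that same difference. At the unadjusted threshold 532 of these genes were lower, which is 3.96% of all genes tested, and 546 were higher.

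Grik3 was the only gene of the glutamate receptor lists with an adjusted p under 0.05. Grik3 (chr4:125384202-125607966), the GluK3 subunit of kainate receptors, had 54.3, 79.4 and 101 CPM in Ts and 114, 120 and 139 CPM in 2N. Every Ts library was below every 2N library, and the LFC was -0.60 (SE 0.11, adjusted p = 6.28e-04). None of the other 6 genes tested in the kainate receptor list passed either threshold, and Grik1, on the triplicated segment, had an unadjusted p of 0.0816 at a median of 3.27 CPM in Ts and 1.91 CPM in 2N. Cacna1g (chr11:94299217-94365230), the T-type calcium channel Cav3.1, had 7.06, 12.5 and 18.5 CPM in Ts and 12.4, 26.8 and 39.5 CPM in 2N, an LFC of -1.09 (SE 0.24, adjusted p = 0.0114). The groups overlapped, and the adjusted p ran from 0.00240 to 0.110 when each library was left out, past the threshold without 2N replicate 3 and without Ts replicate 1. Orai2, a store-operated calcium channel, had 146, 189 and 224 CPM in Ts and 232, 257 and 308 CPM in 2N, an LFC of -0.50 (SE 0.10, adjusted p = 0.00280) with no overlap.

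Kcnip2, the KChIP2 partner of A-type potassium channels, had 142, 158 and 201 CPM in Ts and 192, 214 and 236 CPM in 2N. Ts replicate 1 alone reached into the 2N range, and the LFC was -0.41 (SE 0.09, adjusted p = 0.00674). Camk2n1, an inhibitor of CaMKII, had an LFC of -0.35 (SE 0.08, adjusted p = 0.00893), and the CaMK kinase gene Camkk1 had -0.30 (SE 0.08, adjusted p = 0.0468).

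Sox4 (chr13:29132902-29137696), a transcription factor that is high in immature granule cells, had 12.3, 16.4 and 21.0 CPM in Ts and 25.8, 32.7 and 43.7 CPM in 2N. No library of a genotype fell in the range of the other, and the LFC was -1.03 (SE 0.20, adjusted p = 0.00154). Of the 12 members of the immature granule cell list tested, Sox4 included, 7 had a positive and 5 a negative LFC, and 3 passed the unadjusted threshold (25% beside 8.5% of all genes). Dcx (-0.06, adjusted p = 0.9805) and Sox11 (-0.03, adjusted p = 0.983) were near zero, Dpysl5 was lower (-0.63, adjusted p = 0.381) and Crmp1 higher (0.21, adjusted p = 0.511) at the unadjusted threshold, and the list as a whole summed to 988 to 1119 CPM in Ts and 989 to 1132 CPM in 2N. Of 8 tested genes of stem cells and progenitors 0 passed either threshold. Rfx5, a regulator of MHC class II genes, had an LFC of -0.93 (SE 0.19, adjusted p = 0.00441), and the zinc finger gene Klf13 had -0.31 (SE 0.07, adjusted p = 0.0184).

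Lower genes with other roles were Lrp1b (LFC -0.30, adjusted p = 0.0124), a large receptor of the LDL receptor family, and Ccdc71l (-0.51, adjusted p = 0.0184). Neurod2, a transcription factor of excitatory neurons that was picked for description after its values were seen, had 257, 283 and 328 CPM in Ts and 335, 353 and 393 CPM in 2N, an LFC of -0.30 with an adjusted p of 0.0365 and no overlap. Its adjusted p lost the threshold in 7 of the 12 leave-one-out fits (0.0175 to 0.103) and in limma-voom (0.0773).

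**Figure D3:**
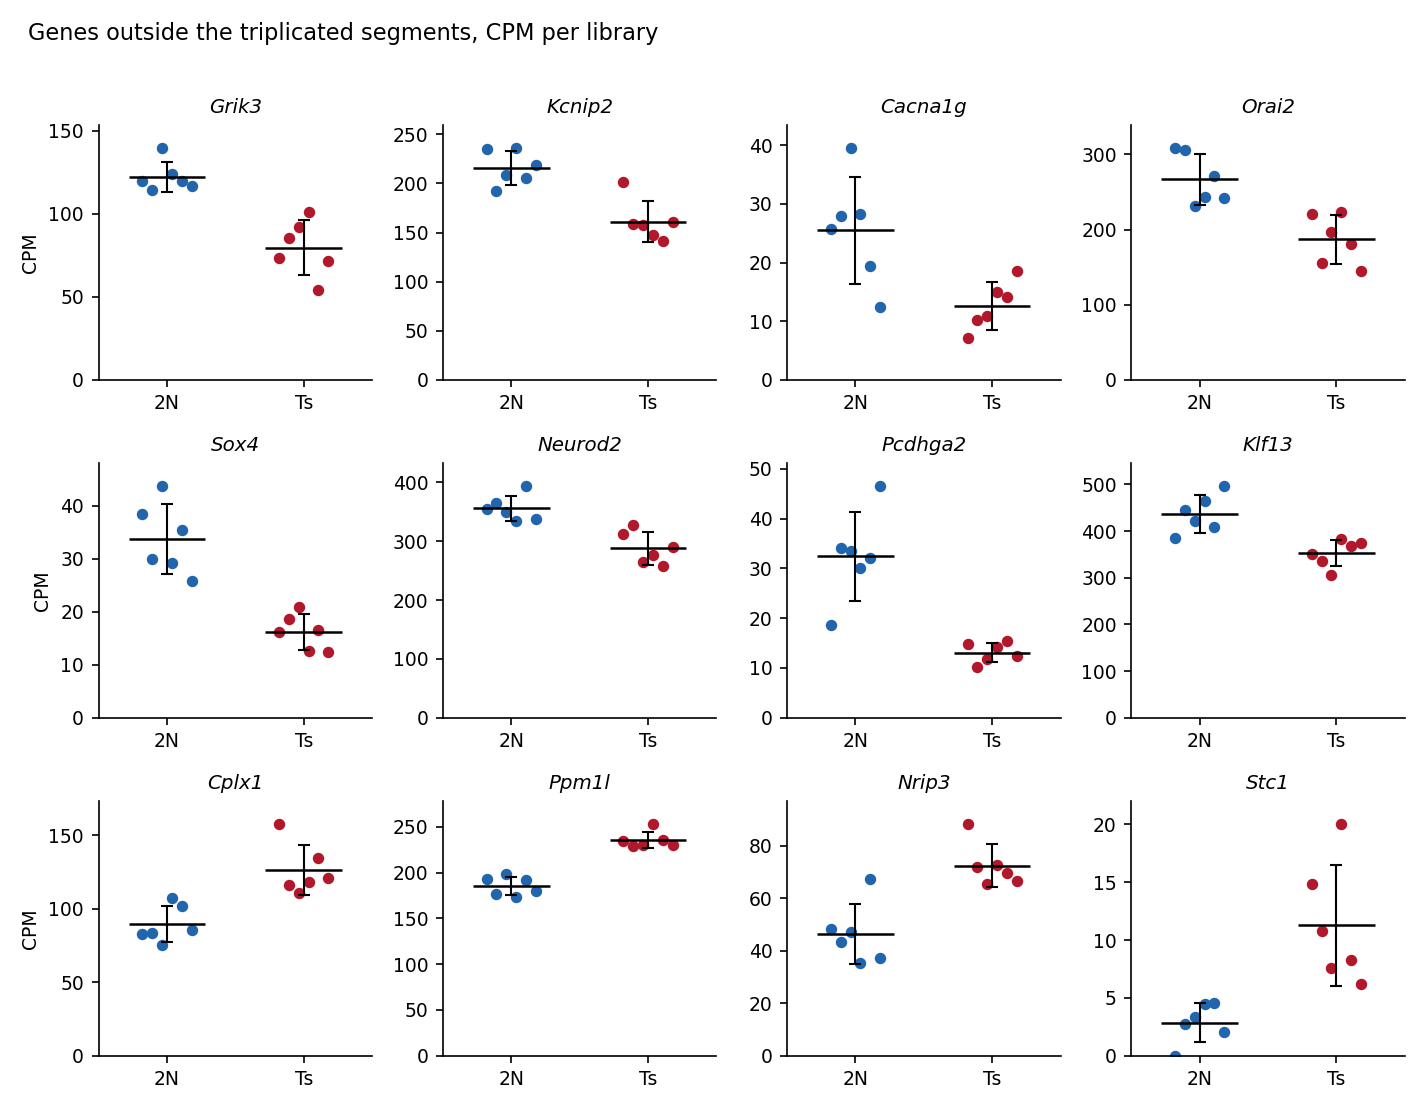
CPM (vertical axes, from 0) of 12 genes outside the triplicated segments in the 6 2N (blue) and 6 Ts (red) DGC libraries, with a point per mouse, the long bar at the mean and error bars of 1 SD. Grik3, Orai2, Sox4, Neurod2, Pcdhga2 and Klf13 are lower in every Ts library than in any 2N library, Cplx1, Ppm1l and Stc1 are higher in every Ts library, and Kcnip2, Cacna1g and Nrip3 overlap.

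Cplx1, a gene of transmitter release, and genes of phosphorylation were among the higher genes. Cplx1, complexin 1, which clamps and then speeds vesicle fusion, had 111, 120 and 158 CPM in Ts and 75.6, 84.7 and 107 CPM in 2N. The Ts libraries were all higher, with an LFC of 0.50 (SE 0.11, adjusted p = 0.00636). The release gene Doc2b, picked after its values were seen, went the other way, with an LFC of -0.40 (SE 0.10, adjusted p = 0.0399) and no overlap. Doc2b lost the adjusted threshold in 9 of the 12 leave-one-out fits (0.0101 to 0.119) and in limma-voom (0.103). Ptpn5, the phosphatase STEP that acts on glutamate receptors and MAP kinases, had an LFC of 0.78 (SE 0.18, adjusted p = 0.0149), Ppm1l, another protein phosphatase gene, 0.35 (SE 0.08, adjusted p = 0.0149), and Prkar1b, a regulatory subunit of protein kinase A, 0.36 (SE 0.09, adjusted p = 0.0284).

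Other higher genes were the G protein regulator genes Rgs11 (LFC 1.01, SE 0.23, adjusted p = 0.0121) and Rgs14 (0.56, SE 0.14, adjusted p = 0.0391), both accelerators of GTP hydrolysis. Stc1 (chr14:69266575-69279253), the secreted glycoprotein stanniocalcin 1, had 6.17, 9.54 and 20.0 CPM in Ts and 0, 3.04 and 4.57 CPM in 2N. The groups did not overlap, and its LFC of 1.92 (SE 0.40, adjusted p = 0.00475) rests on low counts, with 1 2N library at 0. Nrip3 (chr7:109357262-109381232), a nuclear receptor interacting protein gene, had 65.4, 70.9 and 88.3 CPM in Ts and 35.5, 45.3 and 67.4 CPM in 2N, an LFC of 0.66 (SE 0.14, adjusted p = 0.00436) with 4 of 6 Ts libraries above every 2N library. Cdhr1, a cadherin-related gene, had an LFC of 1.08 (SE 0.22), the extracellular matrix gene Fras1 0.82 (SE 0.18), Greb1l 1.32 (SE 0.32) and Phyhipl 0.37 (SE 0.09), all with adjusted p from 0.00459 to 0.0273. Nrxn3, a presynaptic adhesion protein gene, had an LFC of 0.45 (SE 0.11, adjusted p = 0.0356), which lost the adjusted threshold in 9 of the 12 leave-one-out fits (0.00535 to 0.120).

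When each library was left out in turn, 11 of the 46 kept an adjusted p under 0.05 in all 12 fits, among them Pcdhga2, Grik3, Sox4, Orai2, Nrip3, Rfx5, Cdhr1, Stc1, Cplx1 and Kcnip2, against 26 of 33 triplicated genes. Of the 46, 31 were also called in DESeq2 and 13 in limma-voom, and 6 kept the call under every alternative, against 31, 28 and 19 of the 33. The labels number the mice, and numbers beginning with 15 occur among these libraries only in 2N (replicates 1 and 2) and those beginning with 16 only in Ts (replicates 1 and 2), while the meaning of these digits is not given in the sources used here. Over the 4 Ts and 4 2N mice whose number begins with 17, a fit chosen after seeing the data and with fewer samples, 10 of the 46 and 20 of the 33 kept an adjusted p under 0.05, with 4 calls on Mmu17. In that fit all 46 kept their direction and an unadjusted p under 0.05, but they were chosen on a set that includes these mice. Whatever these digits mark cannot be told apart from genotype for the other 4 mice. Stc1 and Cdhr1 lost the adjusted threshold in limma-voom (adjusted p of 0.0595 and 0.0682). So did Cacna1g (0.0773), Rgs11 (0.0582), Fras1 (0.0671), Ptpn5 (0.0583), Ccdc71l (0.1095), Greb1l (0.0669), Phyhipl (0.0813), Prkar1b (0.0606) and Camkk1 (0.0778). Nrxn3, Rgs14 and the protocadherin genes Pcdhb2 and Pcdhb3 lost it in both DESeq2 and limma-voom. Apart from Cacna1g above, the named genes that lost it included Camk2n1 without 2N replicate 2 (0.00243 to 0.0558 over the 12 fits) and Lrp1b without 2N replicate 4 (0.0107 to 0.0740). Rgs11, Fras1, Ptpn5 and Ppm1l each lost it in 3 fits, Ccdc71l and Klf13 in 5, Greb1l and Prkar1b in 6, Phyhipl in 7, Rgs14 in 8 and Camkk1 in 10.

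Clustered protocadherin genes had mostly negative LFCs. These adhesion molecules are encoded in alpha, beta and gamma clusters side by side on mouse chromosome 18, and each neuron uses a few of them as a surface identity. Of the 54 tested, 42 had a negative LFC (median -0.29, beside 0.003 for all genes), 15 were lower and 0 higher at the unadjusted threshold, 27.8% of the list beside 8.5% of all genes, and 3 passed the adjusted threshold. Pcdhga2 (chr18:37801946-37975014) had 10.2, 13.3 and 15.3 CPM in Ts and 18.5, 32.8 and 46.5 CPM in 2N. Every Ts library was below every 2N library, with an LFC of -1.33 (SE 0.21, adjusted p = 4.03e-05). Pcdhb3 (-1.35, SE 0.34, adjusted p = 0.0421) and Pcdhb2 (-1.17, SE 0.30, adjusted p = 0.0430) lost the adjusted threshold in 8 and 10 of the 12 leave-one-out fits.

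A difference between the clusters was not tested. In the alpha cluster 7 of 11 genes had a negative LFC, 0 passed the unadjusted threshold, and the summed level was 173 to 223 CPM in Ts and 187 to 212 CPM in 2N. In the beta cluster 18 of 21 were negative and 5 passed, with 205 to 275 CPM in Ts and 264 to 342 CPM in 2N. The gamma cluster had 17 of 22 negative and 10 passing, with 617 to 730 CPM in Ts and 700 to 856 CPM in 2N. Alpha and gamma genes share the constant exons of their cluster, so RSEM had to divide reads among them, and 6.06% of alpha and 9.89% of gamma values above 0 were whole numbers to within 1e-06, against 96.8% in the beta cluster, whose genes have a single exon. Values of single alpha and gamma genes, Pcdhga2 included, are uncertain for that reason.

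**Figure D4:**
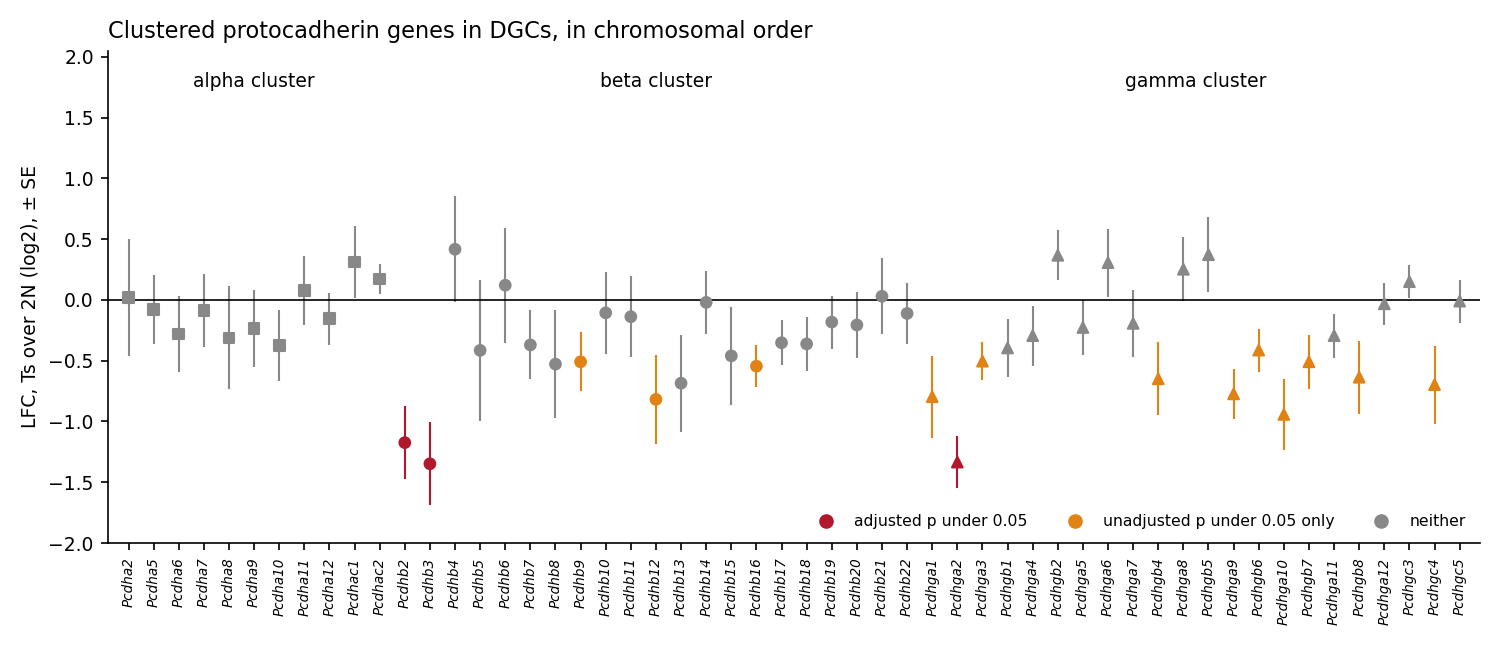
LFC of Ts over 2N in DGCs (vertical axis, log2 scale, bars of 1 SE) for the 54 tested clustered protocadherin genes in chromosomal order, with squares for the alpha, circles for the beta and triangles for the gamma cluster, red for an adjusted p under 0.05, orange for an unadjusted p under 0.05 only and grey for neither. All 15 colored genes lie below 0, in the beta and gamma clusters.

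Several synaptic gene lists held members called in both directions, and their shares at the unadjusted threshold stand beside 8.5% of all genes. In the AMPA receptor list of 15 tested genes, the auxiliary subunit gene Cacng3 (LFC 0.45, adjusted p = 0.127) and Gria4 (0.46, adjusted p = 0.51) were higher and Gria2 (-0.19, adjusted p = 0.183) and Shisa6 (-0.22, adjusted p = 0.477) lower at the unadjusted threshold (26.7% of the list), with 0 adjusted calls. Grin2a, the GluN2A subunit of NMDA receptors, had 1080, 1133 and 1273 CPM in Ts and 1191, 1292 and 1481 CPM in 2N, an LFC of -0.19 (SE 0.06) with an adjusted p of 0.153. Of 12 GABA-A receptor genes 9 had a negative LFC and 2, Gabrb1 (-0.17, adjusted p = 0.51) and Gabra5 (-0.21, adjusted p = 0.557), passed the unadjusted threshold (16.7%). Among 27 vesicle release genes 4 were higher and 3 lower at that threshold (25.9%), Syt7, a calcium sensor of release, being lower without overlap (LFC -0.23, SE 0.06, adjusted p = 0.0576) and Syn3, a synapsin gene, lower at -0.49 (adjusted p = 0.0761). Of 27 synaptic adhesion genes 6 were higher and 1 lower (25.9%), among them Cadm3 (0.31, adjusted p = 0.0568) and the triplicated gene Dscam (0.32, adjusted p = 0.0998). Of 36 voltage-gated channel genes 3 were higher and 4 lower (19.4%).

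Metabolic and stress lists held 0 adjusted calls apart from Sod1, Cct8, Atp5po, Atp5pf and Stc1. Of 23 cholesterol synthesis genes 17 had a positive LFC (median 0.21) and 4 were higher at the unadjusted threshold, among them Sqle (0.57, adjusted p = 0.566) and the regulator Srebf2 (0.22, adjusted p = 0.566), which is 17.4% of the list beside 8.5% of all genes. Cytosolic ribosomal protein genes had 8 higher and 1 lower of 81 (11.1%, median 0.09), and mitochondrial ribosomal protein genes 3 higher and 2 lower of 78 (6.41%, median -0.04). The heat shock and ER stress list had 3 higher and 0 lower of 16 (18.8%), and the hypoxia target list, which holds Stc1, 3 higher and 0 lower of 15 (20.0%). Of 7 mitochondrially encoded genes tested 6 had a negative LFC, and mt-Co1 passed the unadjusted threshold (-0.19, adjusted p = 0.51). Neuropeptide and granin genes had 8 of 9 positive, with Scg2 (0.23, adjusted p = 0.254) and Chga (0.27, adjusted p = 0.51) passing (22.2%). At the unadjusted threshold, of 19 genes of App processing, Sorl1, a sorting receptor of App, was lower (-0.23, adjusted p = 0.113) and Apoe higher (0.26, adjusted p = 0.559), and of the 19 immediate early genes tested Fosb (0.67, adjusted p = 0.528) and Fosl2 (0.30, adjusted p = 0.491) were higher and Egr3 (-0.22, adjusted p = 0.528) lower (15.8% of each list, App among the former). The neurotrophin list (9 tested) and the choline and phosphatidylcholine list (11 tested) had 0 members under either threshold, and Gnas, the stimulatory G protein subunit, had an LFC of 0.09 (adjusted p = 0.807).

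Markers of other cells gave these values beside the gene lists. The 9 astrocyte markers summed to 888 to 1155 CPM in Ts and 830 to 1156 CPM in 2N, 8 had a positive LFC, and the low genes Aldh1l1 (1.64, adjusted p = 0.231), S100b (adjusted p = 0.464) and Sox9 (0.67, adjusted p = 0.577) passed the unadjusted threshold (33.3% of the list beside 8.5% of all genes, median 0.26), while Gfap had an LFC of -0.05 (adjusted p = 0.983). Microglial markers summed to 53.1 to 80.5 CPM in Ts and 42.9 to 63.0 CPM in 2N with 0 of 8 passing, interneuron markers to 211 to 298 and 221 to 284 CPM with 0 of 5, and oligodendrocyte markers to 168 to 238 and 169 to 254 CPM with 0 of 6. CA2 markers, among which Pcp4 is triplicated and Rgs14 was called, summed to 77.9 to 102 CPM in Ts and 58.9 to 104 CPM in 2N without Pcp4. CA1 markers summed to 32.1 to 44.4 CPM in Ts and 38.99 to 74.38 CPM in 2N, and of the 3 tested 2 had a positive LFC, Wfs1 among them (0.29, adjusted p = 0.825), while Fibcd1 was lower at the unadjusted threshold (-0.83, adjusted p = 0.0887). The part of these cells in the gene results was not tested.

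The mice of the supplemented diet share no animal with those above, and the triplicated genes were higher there as well. In those DGCs 7.6% of 14162 genes tested passed the unadjusted threshold. Of the 24 Mmu16 genes with an adjusted call on the normal diet all 24 were higher at that threshold, as were 8 of the 9 on Mmu17, the exception being Tmem181a (LFC 0.16, adjusted p = 0.8985). The median LFC there was 0.60 over Mmu16 and 0.56 over Mmu17. A test of the difference in LFC between diets called 3.97% of 16537 genes at the unadjusted threshold and 0 at the adjusted one, with 1 adjusted call in DESeq2. Of the 90 triplicated genes 5 passed the unadjusted threshold of that test: Usp16 (0.32 on the normal and 0.72 on the supplemented diet), Cryzl1 (0.46 and 0.91), Tiam2 (0.82 and 0.48), Tmem181a (0.71 and 0.16) and Pde10a. Usp16 and Cryzl1 were picked for description after their values were seen.

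Of the 46 genes called outside the segments, 44 had the same direction in mice of the supplemented diet, 95.7%, beside 57.1% of all genes tested outside. There 23 of the 46 had an unadjusted p under 0.05 in the same direction, beside 5.41% of all genes, 5 had an adjusted p under 0.05, and 0 passed in the opposite direction. The LFC was smaller in size in 44, those of opposite sign included. Cacna1g had 5.72, 11.1 and 23.9 CPM in the 9 Ts and 14.3, 28.7 and 41.1 CPM in the 7 2N libraries, an LFC of -1.06 with an adjusted p of 0.00263, near its -1.09 on the normal diet. Nrip3 (0.55, adjusted p = 0.0167) and Cplx1 (0.43, adjusted p = 0.0335) also passed the adjusted threshold in both sets of mice, as did Epb41 (0.51, adjusted p = 0.00578) and Frmpd4 (0.40, adjusted p = 0.0273), both picked after their values were seen. On the normal diet Epb41 lost its call in 10 and Frmpd4 in 6 of the 12 leave-one-out fits, and both lost it in DESeq2 and limma-voom. Grik3 had an LFC of -0.40 (adjusted p = 0.0868). Fras1 (-0.16, adjusted p = 0.966) and Camk2n1 (0.04, adjusted p = 0.983) had the opposite sign. At an unadjusted p under 0.05, 11 of the 46 differed between the diets and 0 did after adjustment, and these 46 were chosen for large differences in 1 of the 2 groups of mice being compared. The protocadherin list had 37 of 55 negative, with 11 lower and 3 higher at the unadjusted threshold (median -0.17), the cholesterol list 20 of 23 positive (median 0.25), and the interferon-induced list a median of 0.09.

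**Figure D5:**
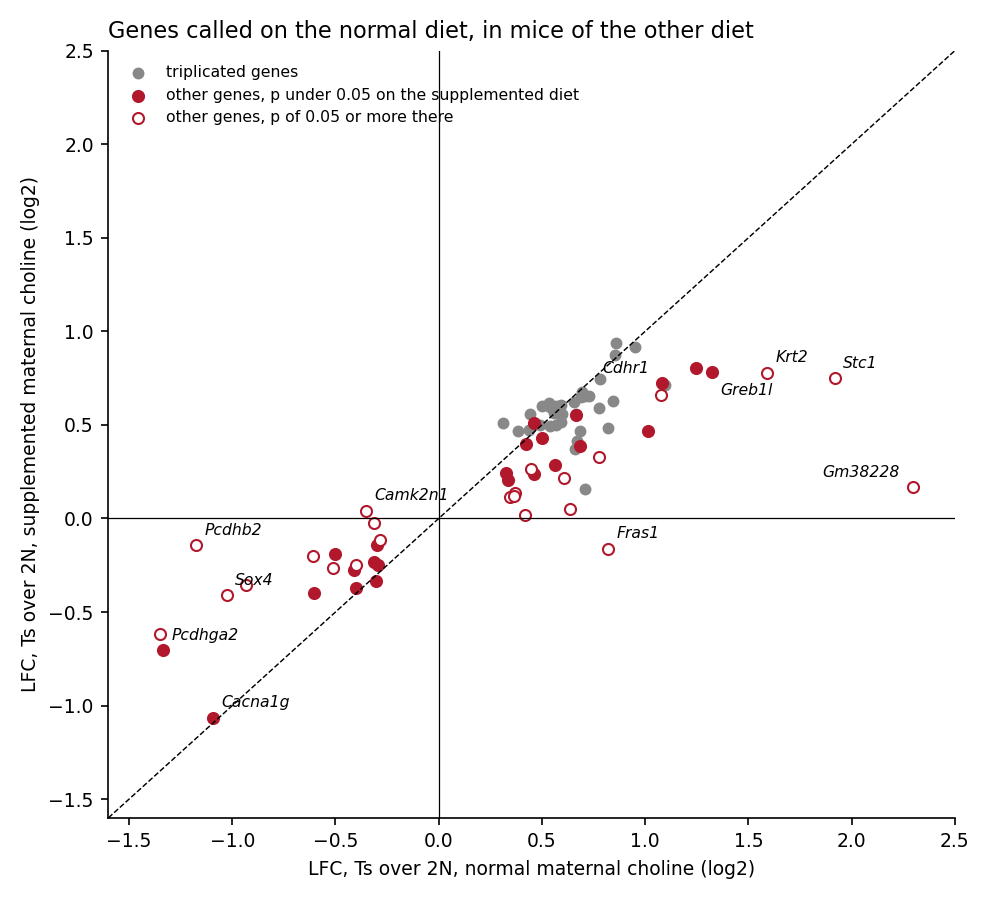
LFC of Ts over 2N in DGCs on the normal diet (horizontal axis) and on the supplemented diet (vertical axis), both on the log2 scale, for genes with an adjusted p under 0.05 on the normal diet, with grey points for triplicated genes, red for the 46 other genes (filled where the unadjusted p was under 0.05 on the supplemented diet) and the dashed line at equal values. Of the 46, 44 lie on the same side of 0 on both axes and 44, of which 42 kept their side, are closer to 0 on the supplemented diet.

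CA3 PNs and CA1 PNs of these mice were set beside the 46 genes, though not every mouse had a library of each population in use. There were 6 Ts and 5 2N libraries of CA3 PNs and 5 Ts and 6 2N libraries of CA1 PNs. In CA3 PNs 34 of the 43 genes tested had the same direction, 79.1%, beside 53.8% of all genes, and 8 passed the unadjusted threshold in that direction, 18.6% beside 4.69% of all genes, while 1, Fras1 (-0.69), passed in the opposite direction. In CA1 PNs 26 of 43 had the same direction, 60.5% beside 52.2%, and 2 passed, 4.65% beside 1.81%, while 1, Phyhipl, passed in the opposite direction. The test of the difference in LFC called 4.85% of 17642 genes between DGCs and CA3 PNs and 5.46% between DGCs and CA1 PNs at the unadjusted threshold, and among the 46 it called 17 and 16, with 0 after adjustment (smallest adjusted p 0.602 and 0.364). The 46 were chosen for large differences in DGCs, which by itself favours a difference from the other populations, so nothing is read from these counts. Kcnip2 had an LFC of 0.04 in CA3 PNs (unadjusted p of the difference 0.00124), Nrxn3 -0.13 (6.43e-04), Rgs11 0.08 (0.00238) and Prkar1b 0.00 (0.00338), and Phyhipl had -0.39 in CA1 PNs (1.03e-04). These genes were picked from the 46 after their values were seen, and 0 of these differences passed after adjustment. No difference between populations is read from them. Rfx5 was lower at the unadjusted threshold in all 3 populations, with LFCs of -0.93 in DGCs, -1.23 in CA3 PNs (adjusted p = 0.126) and -0.86 in CA1 PNs (adjusted p = 0.9996), and Cacna1g was lower at that threshold in CA3 PNs as well (-0.87, adjusted p = 0.392). Of the 33 triplicated calls 0 differed between DGCs and CA3 PNs at the unadjusted threshold, and 5 differed from CA1 PNs: App (0.31 in CA1 PNs), Ifngr2 (0.51), Donson (0.33), Zbtb21 (0.25) and Tmem181a (0.24), with 0 after adjustment. The 33 were likewise chosen by their calls in DGCs, so nothing is read from these counts either. Over all 90 triplicated genes, 2 differed from CA3 PNs and 7 from CA1 PNs at the unadjusted threshold, with 0 after adjustment.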

How the data were processed

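RNA of laser-captured DGCs was sequenced by the authors, and the deposited matrices hold expected counts per gene, estimated by RSEM from reads aligned to GRCm39. The submitters' processing notes name STAR, RSEM, Trimmomatic 0.39, FastQC 0.11.9 and Picard 2.26.2. RSEM divides reads among genes that share sequence, and 2.945% of the expected counts above 0 were not whole to within 1e-06, and all were rounded. Gene symbols and coordinates came from GENCODE M39 (56310 of 57010 identifiers matched).

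Genes over 0.1 CPM in at least 10 libraries were kept, with CPM here on library totals without the TMM factor. As 0.1 CPM is 0.0696 to 0.167 of a count, the filter in effect asks for a count above 0. Counts were scaled by TMM and tested with edgeR's quasi-likelihood test (edgeR 4.0.16, R 4.3.3, two-sided, Benjamini-Hochberg over all genes tested), with 6 mice a group and no covariates. The RNA concentration and read percentages that the study used as covariates were not used here. Within the genotype comparison of DGCs each library came from a separate mouse. Differences in LFC between diets and between populations were interaction terms of the same test. The populations share mice, and the main test between them had no term for the mouse. Library measures were compared by exact permutation tests. For CA3 PNs, mouse 15-145 was left out, since its genotype label there (Ts) differs from that of its remaining libraries (2N). On simulated data for the genotype comparison (13442 genes), 63 of 100 genes changed 1.5-fold and 97 of 100 changed 2-fold were recovered, with 7 false calls. The changed genes were drawn only from genes above a minimum mean count, so recovery among lower genes was not simulated. The simulated spread between libraries followed the trend over all genes, without the spread particular to each gene.

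Named genes were the triplicated genes with an adjusted p under 0.05, the 12 higher and 12 lower other genes with the smallest p, the called members of 46 lists (13 of markers, 33 of pathways) with up to 3 further members by unadjusted p, and App, Dyrk1a, Pcp4, Gnas and Gria2. The members and lists were chosen with earlier results of these data known. Alternatives were DESeq2 1.42.0, limma-voom (limma 3.58.1), library totals, other filters, 1 surrogate variable (sva 3.50.0), both diets in 1 fit, each library left out, and, chosen after seeing the data, only mice whose number begins with 17. Python 3.11.15 with numpy 2.4.6, pandas 2.3.3, scipy 1.17.1 and matplotlib 3.10.9 was used for summaries and figures. Some genes that the rule names are not reported here.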

Additional observations from a re-analysis of the deposited data

Results flagged for a closer look

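In groups of 6 libraries, 6 of 132 groups tested (library measures, the segment levels and the CPM of 59 genes) had a highest or lowest library far from the other 5, where chance alone gives about 1 in 20. The Mmu16 level of Ts replicate 2 was 0.639, above that of the other Ts libraries. Ts replicate 1 stood above its group for Nrip3 (88.3 CPM) and for Kcnip2 (201.3 CPM), and Ts replicate 4 for Ppm1l (252.8 CPM). 2N replicate 6 stood below its group for Synj1 (341.9 CPM), and 2N replicate 1 above its group for Ifngr2 (35.65 CPM).

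The genotype difference of Arhgef10l, a gene singled out after its values were seen, differed between populations. Its LFC was 0.62 in DGCs and -1.97 in CA3 PNs, a difference of 2.602 (SE 0.45, adjusted p = 0.00524 in edgeR). The difference was 2.59 with library totals (adjusted p = 0.00740), 2.56 with the mouse as a block (adjusted p = 0.00213) and 1.88 when mouse 15-145 entered CA3 PNs as Ts (adjusted p = 0.784). The CA3 PN library of that mouse had an Mmu16 level of 0.02, within the range of the 2N libraries of CA3 PNs (-0.03 to 0.03).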

How the results depend on the processing

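Of the 111 to 120 named genes tested under each alternative, 0 changed direction. With library totals in place of TMM the unadjusted calls were 567 higher and 571 lower, against 611 and 532, and the median LFC of all genes was -0.006 against 0.003. Gene list medians were not recomputed under the alternatives. The 79 genes with an adjusted p under 0.05 (59 higher, 20 lower) were 45 (32 and 13) in limma-voom, and 12 were lower with both diets in 1 fit. With no filter on low counts 1812 genes passed the unadjusted threshold (988 higher, 824 lower) of 23368 tested. Over only the mice whose number begins with 17 (4 Ts and 4 2N, chosen after seeing the data), 37 genes were called, 23 of them higher, 4 on Mmu17, and the Mmu16 median LFC was 0.497; this fit has fewer samples. The difference between diets had 1 adjusted call in DESeq2 and 361 unadjusted calls with filterByExpr, which tests fewer genes. For the other changed counts the cause was not tested.

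Leaving out each library in turn gave 49 to 81 adjusted calls, with 38 to 61 higher and 11 to 26 lower, and 5 to 9 on Mmu17. The lowest counts were 49 in all, 38 higher and 11 lower without 2N replicate 2, 39 higher without 2N replicate 6, 11 lower without Ts replicate 3, 13 lower without Ts replicate 6, and 5 on Mmu17 without 2N replicate 4. Of the 120 named genes, 21 lost their call in limma-voom and 6 of 116 in DESeq2.

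No paired analysis was possible for genotype within DGCs because Ts and 2N libraries come from different mice. With the mouse as a replicate block, the difference between DGCs and CA3 PNs had 2 adjusted calls and 725 unadjusted ones, and that from CA1 PNs 0 and 862. With the CA3 PN library of mouse 15-145 as Ts these had 0 and 2 adjusted calls. Low genes had larger SEs, and depth was not varied.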
